A study of Sus scrofa with 12 samples.

Results

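The NANOG tdTomato knock-in pig cells were sequenced as 3 lines, and this account sets line 2 against lines 1 and 3. The cells were PC-iPS cells, pluripotent cells reprogrammed from pig pericytes, in which CRISPR/Cas9 had joined the red fluorescent protein tdTomato to NANOG. Each line came from its own transfection and was sorted for tdTomato, so it was a mixed population and not a clone, and its cells could carry the insert at 1 or more NANOG copies on chromosomes 1 and 5 or at none. The libraries used were all those of the knock-in lines, 9 of the 12 in the series, with 3 libraries of line 2 and 6 of lines 1 and 3. Every line was sequenced untreated, in the LCDMV medium (LIF, CHIR99021, dimethindene maleate, minocycline and vitamin C), with Activin A, and with SB431542, an inhibitor of the Activin and TGF-β receptors. Both treatments were given in the same medium without LIF. For the cytokine tests the study's methods give 1 dose of SB431542 and more than 1 of Activin A. Which Activin A dose the sequenced libraries had is not stated in the sources used here. The other 3 libraries were WT PC-iPS cells, kept in LCDMV and without the reporter, and they serve here as context only. All 12 libraries share the pericyte origin and the reprogramming, and feeder cells had been removed by letting them settle for 1 h before RNA was extracted.

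Pluripotent cells are epithelial, and their state is held by transcription factors such as NANOG, SOX2 and ESRRB together with signals of the TGF-β, WNT and FGF families. Separate from the pluripotent cells in the early mammalian embryo is the trophectoderm, a simple epithelium that makes keratins 8 and 18. It depends on factors such as TFAP2C and GATA3. Lines made by separate transfections of the same cells can differ in such programmes, so line-to-line differences bear on comparisons made with them. All lines were made with the same guide RNA and the same donor plasmid. The guide is shown here because it sets the site of the insert in every line. It is given from 5′ to 3′ in lower case, followed by the PAM in capitals, and its target is the same in NANOG on chromosome 1 and on chromosome 5.
NANOG reporter guide: atcttcaggctgtatgttcaTGG

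Expression was given as FPKM, a read count scaled to gene length and library size. The libraries were much alike in sequencing terms. The sum of FPKM was between 364241 and 381586, between 15537 and 15827 genes were above 0, and the relative depth, read from the lowest values, ran from 0.732 to 1 with the untreated line 2 library the shallowest. Transcripts coded by the mitochondrion took 9.43% to 11.5% of FPKM. The labels number the libraries 1 to 3 within each treatment. They do not state that a number marks a line under every treatment, and this was looked at in the data. After the mean of each treatment was taken away, libraries of the same number correlated across genes at r = 0.375 to 0.659 and libraries of different numbers and treatments at -0.500 to -0.0785. The deviations within a treatment sum to 0, so the negative values follow from the positive ones and are not separate evidence. The correlations cannot tell a line from anything else that libraries of 1 number shared. Lines 2 and 3 were the farthest apart, with a mean absolute log2 difference of 0.248 to 0.263 within a treatment, against 0.181 to 0.224 for lines 1 and 2 and 0.210 to 0.236 for lines 1 and 3. Genes are not independent replicates, so these correlations are descriptions.

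Line 2 differed from the other lines in 115 of 14313 genes tested. Of these, 86 were higher in line 2 and 29 were lower. The higher genes included keratins 8 and 18, the cell adhesion gene CDH1 and the homeobox genes LMX1A and LMX1B. They also included the ligand BMP7 and the WNT ligands WNT10B, WNT9A and WNT1. The lower genes included the transcription factors HES3, SOX1, SOX21 and FOXB1 and the WNT ligand WNT7A. A gene was called when the limma test on log2(FPKM + 1), with treatment as a block, gave an adjusted p (Benjamini-Hochberg) no greater than 0.05, the log2 difference was at least 1 in size, and the line 2 library lay on the same side of both other lines under each of the 3 treatments. The calls made up 0.601% (higher) and 0.203% (lower) of the genes tested. On position alone, line 2 was above both other lines under each treatment in 1491 genes (10.4%) and below both in 2110 genes (14.7%). By the adjusted p alone, 354 genes were higher (2.47%) and 300 were lower (2.1%). Among genes with a symbol, the called genes nearest the fold threshold were TACC2 (1.02) and CCDC3 (1.04) on the higher side and MACROD1 (-1.004) and MANEAL (-1.008) on the lower side. Those just short of it were ZFAND2A (0.997) and CACNG6 (0.992), and MATN2 (-0.981) and DOC2B (-0.964). Every log2 difference below is line 2 minus lines 1 and 3 on the log2(FPKM + 1) scale, which understates the change of low genes, with its SE over 3 and 6 libraries. In bulk RNA, more cells of a type and more RNA per cell cannot be told apart.

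Line 2 is 1 line, so these p-values measure spread between libraries and not between lines. Exchanging whole lines allows only 3 arrangements, and the smallest permutation p that could be had is 0.333. With line as a correlated block (replicate block, estimated correlation 0.337), 46 genes were called higher and 15 lower, all 61 of them among the 115. Of the 115 genes, 49 were called whichever of the 9 libraries was left out. Without the untreated line 2 library 51 were called higher and 18 lower, without the SB431542 line 2 library 42 and 12, and without the Activin A line 2 library 19 were called lower. With all 3 untreated libraries left out the counts fell to 19 higher and 7 lower, and with all 3 SB431542 libraries left out to 27 and 6.

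The 5 marker genes chosen for this comparison were all called higher in line 2. Their part in the choice was known from earlier results on these libraries, so the values are a description. KRT8 codes for keratin 8, an intermediate filament protein of simple epithelia, and in lines 1, 2 and 3 it stood at 96.7, 428 and 44.3 FPKM untreated, 100.04, 334 and 35.3 FPKM with Activin A, and 200.1, 835 and 90.4 FPKM with SB431542. KRT18, its partner keratin, was at 7.57, 36.3 and 5.004 FPKM untreated, 12.1, 50.3 and 4.79 FPKM with Activin A, and 9.87, 68.8 and 6.81 FPKM with SB431542. They were the 2 genes tested of the list of simple-epithelium keratins. Line 2 held the highest value of both keratins under every treatment, as the call requires. Lines 1 and 3 also stood apart, with line 1 above line 3 throughout. The log2 difference was 2.59 ± 0.39 (SE) for KRT8 (adjusted p = 0.0131, limma) and 2.62 ± 0.26 (SE) for KRT18 (adjusted p = 0.0032, limma).

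CDH1, which codes for E-cadherin of epithelial cell contacts, was at 5.01, 17.5 and 2.63 FPKM untreated, 6.53, 18.1 and 2.85 FPKM with Activin A, and 5.30, 16.9 and 3.20 FPKM with SB431542 in the same order. Its line 2 level hardly moved with treatment, and no library of line 1 or 3 came near it. TFAP2C, a transcription factor of trophectoderm and germ cells, was at 2.82, 9.41 and 2.28 FPKM untreated, 6.93, 17.8 and 4.21 FPKM with Activin A, and 1.27, 6.36 and 1.01 FPKM with SB431542. ESRRB, an orphan nuclear receptor of naive pluripotency, was at 1.92, 6.60 and 2.08 FPKM untreated, 2.17, 7.69 and 2.42 FPKM with Activin A, and 1.62, 5.38 and 1.85 FPKM with SB431542. TFAP2C of line 2 with SB431542 lay below line 1 with Activin A, so its groups separate within each treatment and not across them, whereas the ESRRB values of line 2 were above all 6 others. The log2 difference was 1.87 ± 0.25 (SE) for CDH1 (adjusted p = 0.00842), 1.63 ± 0.14 (SE) for TFAP2C (adjusted p = 0.00233) and 1.32 ± 0.08 (SE) for ESRRB (adjusted p = 0.000366), all by limma. KRT8 and CDH1 lost the call when any of the 3 line 2 libraries was left out (limma adjusted p up to 0.106 and 0.0709), and KRT18, TFAP2C and ESRRB kept it in all 9 such fits. With all 3 untreated or all 3 SB431542 libraries left out, KRT18 and TFAP2C lost it too, and TFAP2C also lost it without the treatment block (adjusted p over all alternatives up to 0.0654 for KRT18 and 0.0849 for TFAP2C).

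**Figure D1:**
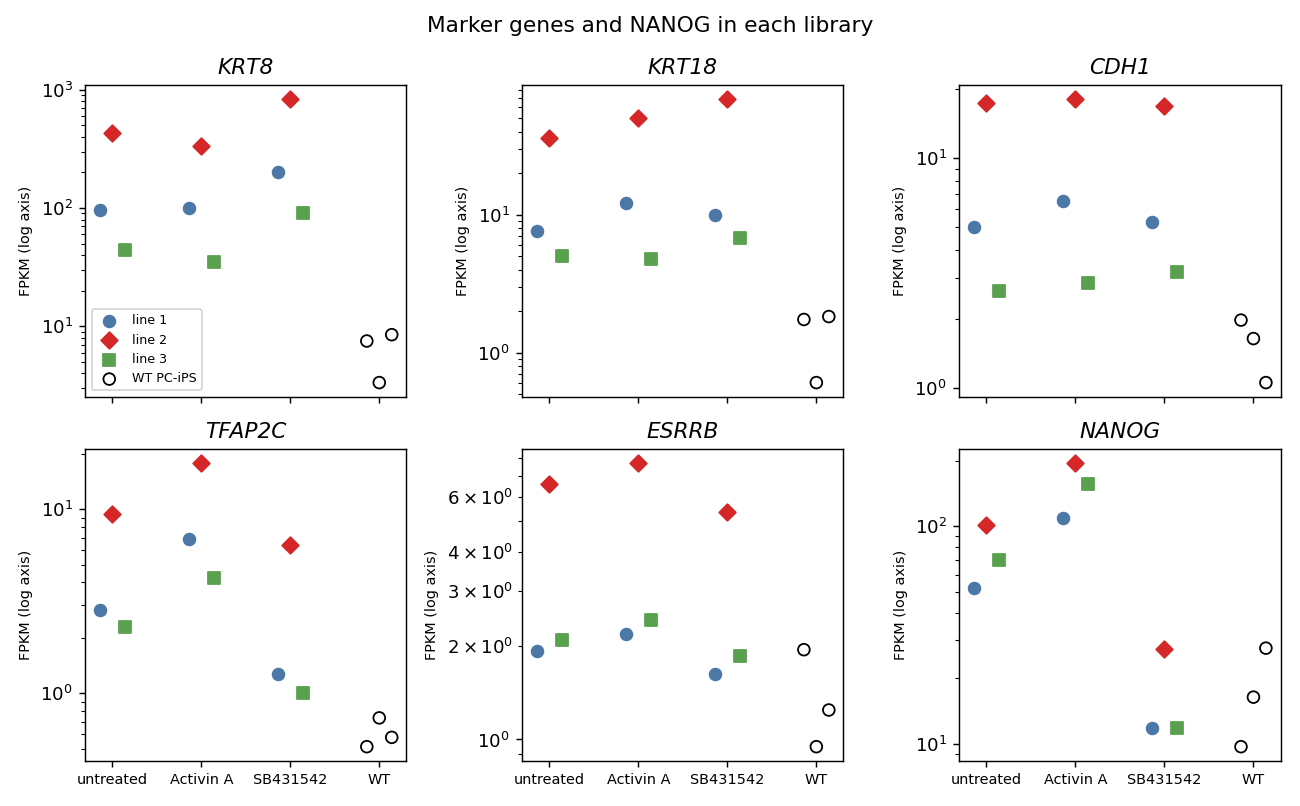
FPKM on a log axis of the 5 marker genes and NANOG in each of the 12 libraries, by treatment, with 1 point a library, colour and shape giving the line and open circles the WT PC-iPS libraries. Line 2 is the highest of the 3 lines in each panel under each treatment, which the call requires of the 5 markers and not of NANOG. The level of NANOG itself moves more with treatment than between lines.

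LMX1B, a LIM homeodomain factor of the roof plate and the midbrain, had the largest positive difference. It was at 0.805, 9.36 and 0.915 FPKM untreated, 1.78, 10.1 and 0.997 FPKM with Activin A, and 0.697, 18.7 and 0.963 FPKM with SB431542 in lines 1, 2 and 3 (log2 difference 2.72 ± 0.22 (SE), limma adjusted p = 0.00196). Its lowest line 2 value was well above every library of the other lines. BMP7, a bone morphogenetic protein, was at 0.766, 11.3 and 1.49 FPKM untreated, 1.13, 10.8 and 2.01 FPKM with Activin A, and 1.57, 26.1 and 1.93 FPKM with SB431542 (log2 difference 2.69 ± 0.22 (SE), limma adjusted p = 0.00196). Neither gene overlapped between the groups over all treatments, and in both the line 2 library with SB431542 was the highest. The groups were apart in this way in 74 of the 86 higher genes and all 29 lower genes. Since the genes were called on these same libraries, non-overlap is no further support for any of them.

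LMX1A, the relative of LMX1B with which it shares roles in the roof plate, was at 1.19, 13.4 and 5.51 FPKM untreated, 2.01, 12.5 and 5.18 FPKM with Activin A, and 2.15, 37.3 and 6.28 FPKM with SB431542. Here lines 1 and 3 differed too, with a log2 difference of 1.27 (line 3 minus line 1, limma adjusted p = 0.0208). The log2 difference of line 2 was 2.19 ± 0.45 (SE) (limma adjusted p = 0.0381), the call held in 2 of 9 fits with a library left out (adjusted p up to 0.24), and the adjusted p with the replicate block was 0.129.

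The other genes of largest positive difference code for membrane and secreted proteins and neuronal proteins. AQP1, a water channel, was at 10.03, 12.2 and 28.1 FPKM in line 2 (untreated, Activin A and SB431542, as in the values that follow) and 0.848 to 2.60 FPKM in lines 1 and 3. GJA1, the gap junction protein connexin 43, was at 56.2, 60.7 and 108 FPKM in line 2 against 8.94 to 29.4 FPKM. SEMA3C, a secreted semaphorin, was at 10.3, 11.03 and 26.6 FPKM against 1.67 to 4.10 FPKM. In all of these the lowest line 2 library stood above the highest of the 6 others, as in most called genes.

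CXCL2, a chemokine, was at 9.87, 11.8 and 16.7 FPKM against 1.25 to 3.16 FPKM. DDN, the postsynaptic and podocyte protein dendrin, was at 5.57, 9.999 and 11.8 FPKM against 0.502 to 1.93 FPKM. PCP4, a small regulator of calmodulin, was at 5.15, 3.16 and 11.2 FPKM against 0.168 to 1.58 FPKM. The groups did not overlap in these genes either, as in most called genes. The log2 differences were 2.50 for AQP1, 2.26 for DDN, 2.13 for CXCL2, 2.13 for PCP4, 2.10 for SEMA3C and 2.09 for GJA1, with limma adjusted p between 0.00223 and 0.00839. AQP1 alone of these missed the threshold with the replicate block (limma adjusted p = 0.0668). AQP1, PCP4 and GJA1 also lost their call with all 3 untreated libraries left out, AQP1 with the Activin A libraries left out and GJA1 with the SB431542 libraries left out (adjusted p up to 0.0785, 0.0753 and 0.0663).

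**Figure D2:**
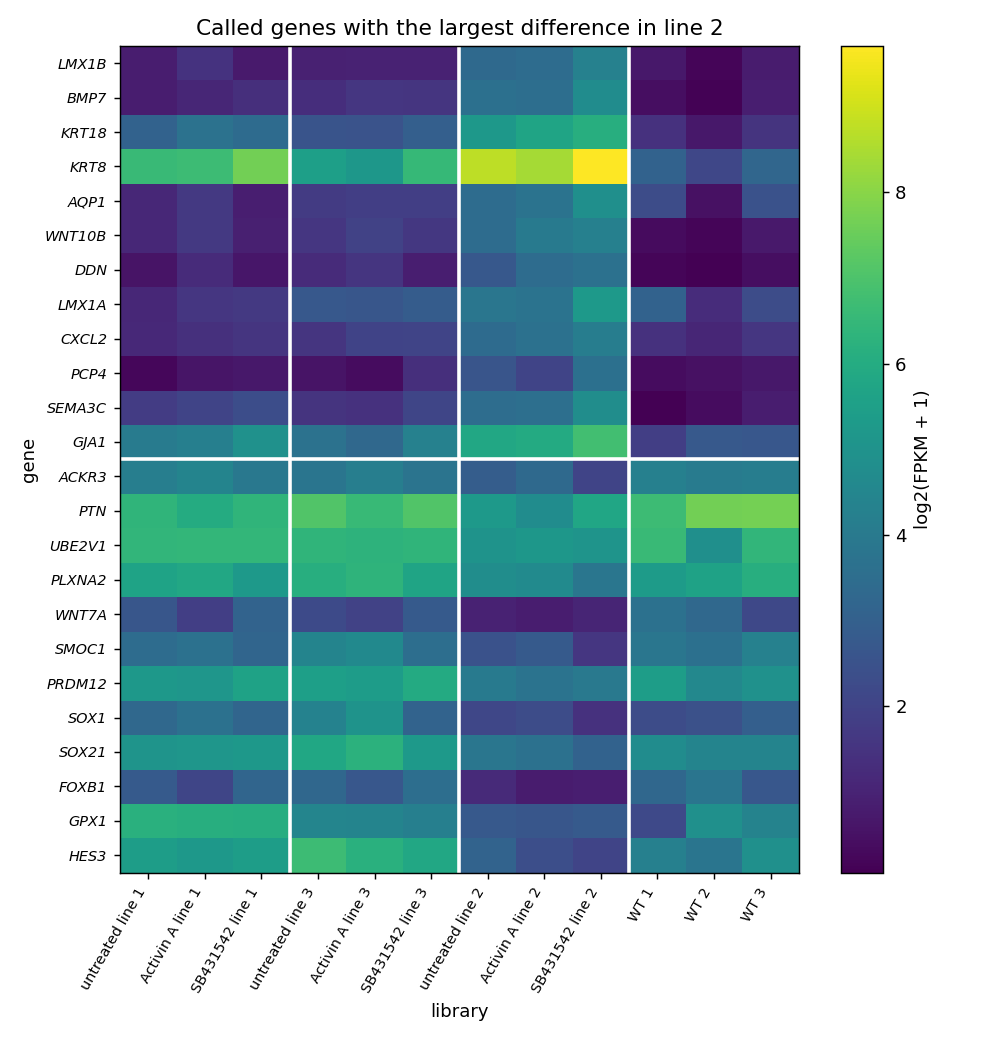
log2(FPKM + 1) of the 12 called genes with a symbol and the largest difference in each direction, higher in line 2 above the white line and lower below it, with a column for each of the 12 libraries grouped by line and WT. The 3 line 2 columns stand out in both blocks, as the genes were chosen for. The WT columns resemble lines 1 and 3 more than line 2 for most genes.

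HES3, a transcriptional repressor of the HES family known from neural progenitors, had the largest difference of all named genes. It was at 41.8, 7.66 and 101.03 FPKM untreated, 36.4, 4.23 and 71.7 FPKM with Activin A, and 41.98, 3.11 and 56.8 FPKM with SB431542 in lines 1, 2 and 3 (log2 difference -3.28 ± 0.31 (SE), limma adjusted p = 0.0029). Its highest line 2 value was several times below the lowest value of the other lines. The call of HES3 was lost with all 3 SB431542 libraries left out (adjusted p up to 0.0596). HES3 overlaps GPR153, an orphan receptor gene, in the RefSeq annotation, and GPR153 was also called lower (log2 difference -1.03, limma adjusted p = 0.00196). GPR153 was called in 7 of 9 fits with a library left out. It lost its call with all 3 SB431542 libraries left out, where its log2 difference was -0.949. Whether reads were counted by strand is not given in the sources used here, so reads of the overlapping part could belong to either gene. ICMT, which lies beside HES3 on chromosome 6, took levels that differed between libraries of one line (58.9, 36.9 and 58.1 FPKM untreated, 10.8, 36.6 and 11.4 FPKM with Activin A, and 57.6, 28.8 and 54.7 FPKM with SB431542), and the part of read assignment between these neighbours in the level of HES3 was not tested.

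SOX21, a SoxB factor of neural progenitors, was at 32.2, 13.4 and 55.2 FPKM untreated, 33.7, 11.7 and 75.7 FPKM with Activin A, and 36.2, 7.61 and 37.6 FPKM with SB431542. SOX1, a SoxB factor that marks early neural ectoderm, was at 8.94, 3.38 and 19.4 FPKM untreated, 11.5, 3.99 and 31.3 FPKM with Activin A, and 8.14, 1.73 and 7.72 FPKM with SB431542. FOXB1, a forkhead factor of the developing brain, was at 5.91, 1.34 and 8.74 FPKM untreated, 3.18, 0.715 and 5.34 FPKM with Activin A, and 8.15, 0.838 and 10.8 FPKM with SB431542. In each of them line 2 was the lowest line under every treatment, as the call requires. The log2 difference was -1.92 ± 0.26 (SE) for SOX21 (limma adjusted p = 0.00943), -1.81 ± 0.32 (SE) for SOX1 (limma adjusted p = 0.0232) and -1.96 ± 0.22 (SE) for FOXB1 (limma adjusted p = 0.00417). FOXB1 was called in all 9 fits with a library left out, and lost its call with all 3 untreated or all 3 SB431542 libraries left out (adjusted p up to 0.0677). Of these 9 fits SOX1 lost its call in 4 and SOX21 in 2, each with its highest limma adjusted p, 0.134 and 0.086, without the SB431542 library of line 2. Both also lost it with all 3 untreated or all 3 SB431542 libraries left out, and SOX1 with the Activin A libraries left out. Over all alternatives the limma adjusted p went up to 0.1997 for SOX1 and 0.152 for SOX21. SOX1 had an adjusted p of 0.0991 with the replicate block.

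PRDM12, a regulator of sensory neuron fate, was at 15.4, 12.4 and 14.5 FPKM in line 2 and 33.5 to 61.0 FPKM in lines 1 and 3. WNT7A, a WNT ligand, was at 0.964, 0.802 and 1.06 FPKM against 2.62 to 7.78 FPKM. PLXNA2, a semaphorin receptor, was at 26.7, 24.8 and 13.5 FPKM against 38.3 to 78.8 FPKM. The groups did not overlap in any of the 3, as in all 29 lower genes. The log2 differences were -1.55 for PRDM12, -1.48 for WNT7A and -1.38 for PLXNA2 (limma adjusted p = 0.00216, 0.00499 and 0.00509). WNT7A and PLXNA2 lost their call with all 3 untreated or all 3 SB431542 libraries left out (adjusted p up to 0.0785 and 0.0768).

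SMOC1, a secreted protein known as a BMP antagonist, was at 4.59, 5.88 and 2.002 FPKM against 8.34 to 24.2 FPKM. PTN, the heparin-binding growth factor pleiotrophin, was at 38.2, 26.1 and 54.2 FPKM against 62.6 to 134 FPKM. ACKR3, an atypical chemokine receptor that takes up CXCL12, was at 6.52, 9.20 and 3.08 FPKM against 12.8 to 20.4 FPKM. The log2 differences of these 3 genes were -1.54, -1.30 and -1.29 (limma adjusted p = 0.0217, 0.0235 and 0.00765), and with the replicate block their adjusted p was 0.0724, 0.0737 and 0.0668. SMOC1 and PTN also missed the threshold in 4 of the 9 fits with a library left out, reaching 0.159 without the SB431542 library of line 2 and 0.142 without its untreated library.

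In 2 lower genes each line kept nearly the same level under every treatment. GPX1, a glutathione peroxidase, was at 71.04, 5.70 and 20.8 FPKM untreated, 68.5, 5.20 and 20.04 FPKM with Activin A, and 66.8, 5.98 and 17.7 FPKM with SB431542. Each line thus had its own level, line 3 minus line 1 came to -1.77 on the log2 scale (limma adjusted p = 0.00383), and the WT libraries also differed several-fold among themselves (3.58, 28.7 and 19.6 FPKM). The log2 difference of line 2 was -2.51 ± 0.55 (SE) (limma adjusted p = 0.0461), and its call held in 1 of 9 fits with a library left out (adjusted p up to 0.214) and not with the replicate block (0.097). RHOA, which codes for a small GTPase and lies beside GPX1 on chromosome 13, took levels near 54.1 to 58.5 FPKM in the untreated libraries of lines 1 and 3 and in the SB431542 library of line 2, and near 118 to 121 FPKM in the 6 others. The part of read assignment between these neighbouring genes in the level of GPX1 was not tested. UBE2V1, a ubiquitin-conjugating enzyme variant, was at 84.4, 31.6 and 82.5 FPKM untreated, 87.2, 35.1 and 77.9 FPKM with Activin A, and 86.1, 32.2 and 81.4 FPKM with SB431542, with WT at 95.8, 28.5 and 84.5 FPKM. The log2 difference of UBE2V1 was -1.31 ± 0.06 (SE) (limma adjusted p = 0.000263), and 1 of the 3 WT libraries had the level of line 2.

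Epithelial genes beyond the keratins were described by lists compiled from general knowledge. Of 27 genes of epithelial junctions and polarity tested, 15 were above both other lines under each treatment and 0 were below, beside 10.4% and 14.7% of all genes, with a median log2 difference of 0.22 against -0.02 over all genes tested. CDH1 and CLDN4, a claudin of tight junctions, were the called members, beside 0.601% of all genes called higher. CLDN4 was at 0.815, 3.60 and 0.372 FPKM untreated, 1.95, 7.08 and 0.698 FPKM with Activin A, and 0.269, 1.83 and 0.282 FPKM with SB431542 (log2 difference 1.52 ± 0.20 (SE), limma adjusted p = 0.00809, 0.0579 with the replicate block), and it missed the threshold without the untreated (0.0624) or the Activin A library of line 2. TJP3, PKP2 and MYO5B, of tight junctions, desmosomes and vesicle transport, passed the adjusted p with log2 differences under 1 (0.60, 0.79 and 0.47). Of 7 epithelial regulators and surface proteases tested, KLF5, a Krüppel-like factor of epithelia, was called (0.601% of all genes). It was at 2.68, 9.46 and 5.39 FPKM untreated, 3.77, 8.87 and 5.10 FPKM with Activin A, and 2.13, 8.92 and 4.30 FPKM with SB431542 (log2 difference 1.09 ± 0.22 (SE), limma adjusted p = 0.0371), and was called in 1 of 9 fits with a library left out (adjusted p up to 0.225) and not with the replicate block (0.12). The median of that list was 0.08.

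Of 15 trophectoderm transcription factors in the list, 9 were tested, and the rest fell short of the filter on low values. Of the 9 tested, 7 were above both other lines under each treatment, 7 passed the adjusted p and 4 were called, all of them higher. Over all genes these shares were 10.4%, 2.47% and 0.601%, and TFAP2C was among the markers chosen for the comparison. The median log2 difference of the list was 0.76. The called members were TFAP2C, MSX2, DLX5 and GATA2. MSX2, a homeobox gene that responds to BMP, was at 1.57, 4.69 and 1.69 FPKM untreated, 2.40, 7.73 and 2.62 FPKM with Activin A, and 1.03, 5.81 and 1.26 FPKM with SB431542 (log2 difference 1.37 ± 0.11 (SE), limma adjusted p = 0.00196). DLX5, a distal-less homeobox gene, was at 0.752, 2.90 and 1.15 FPKM untreated, 1.74, 4.37 and 1.24 FPKM with Activin A, and 0.414, 2.29 and 0.738 FPKM with SB431542 (log2 difference 1.07 ± 0.11 (SE), limma adjusted p = 0.00352), and lost its call with all 3 untreated or all 3 SB431542 libraries left out (adjusted p up to 0.0633). GATA2, a GATA factor of trophoblast and blood, was at 5.09, 13.2 and 7.41 FPKM untreated, 26.3, 38.9 and 21.7 FPKM with Activin A, and 2.15, 10.8 and 4.74 FPKM with SB431542 (log2 difference 1.05 ± 0.22 (SE), limma adjusted p = 0.0418). The call of GATA2 held in 1 of 9 fits with a library left out (adjusted p up to 0.257) and not with the replicate block (0.233). GATA3, TFAP2A and ID2 passed the adjusted p with log2 differences of 0.75, 0.68 and 0.76. CDX2, the defining factor of the trophectoderm in the mouse, was at 0 in all 12 libraries and was not tested.

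NANOG itself was highest in line 2 under each treatment and was not called. In lines 1, 2 and 3 it was at 52.0, 101.1 and 70.4 FPKM untreated, 109, 195 and 157 FPKM with Activin A, and 11.8, 27.2 and 11.8 FPKM with SB431542, and its log2 difference was 0.81 ± 0.15 (SE) (limma adjusted p = 0.0292, 0.152 with the replicate block). Its levels with Activin A in every line were above those of every untreated library, so the treatments separate its values more widely than the lines do. The identifier that carries this symbol is not paired with the copy on chromosome 1 or on chromosome 5, and reads of the copies may have been shared between them.

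Of 13 core and general pluripotency genes tested, LIN28A was called, beside 0.601% of all genes, and a single member is no result about a list. LIN28A, an RNA-binding protein that blocks let-7 maturation, was at 163, 285 and 108 FPKM untreated, 90.02, 200.04 and 67.5 FPKM with Activin A, and 327, 498 and 192 FPKM with SB431542 (log2 difference 1.15 ± 0.20 (SE), limma adjusted p = 0.0228, 0.0668 with the replicate block), and lost the call without any 1 of the line 2 libraries (adjusted p up to 0.136). SOX2 was at 64.0, 67.4 and 67.7 FPKM untreated, 59.6, 56.9 and 69.9 FPKM with Activin A, and 68.8, 68.0 and 71.5 FPKM with SB431542, with a log2 difference of -0.06. The median of this list was -0.04. Of 8 naive pluripotency genes tested, ESRRB was called, and FGF4 and NR0B1 passed the adjusted p at levels under 1.5 FPKM. Over all genes 0.601% were called higher and 2.47% passed the adjusted p on the higher side. POU5F1 was not matched to an identifier and is not reported here.

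Ligands and antagonists of the TGF-β family were next. Of 21 tested, BMP7 and GREM1 were called higher (0.601% of all genes), and the median log2 difference was 0.07. GREM1, a secreted BMP antagonist, was at 1.16, 3.14 and 0.841 FPKM untreated, 2.49, 3.60 and 0.891 FPKM with Activin A, and 1.12, 4.97 and 1.06 FPKM with SB431542 (log2 difference 1.14 ± 0.20 (SE), limma adjusted p = 0.0244). It held its call in 3 of 9 fits with a library left out (adjusted p up to 0.172) and not with the replicate block (0.138). BMP2, a further BMP ligand, passed the adjusted p with a log2 difference of 0.83, and the antagonists CHRDL1 and FST did so in the other direction (-0.52 and -0.60).

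Of 17 SMAD response genes tested, 9 were above both other lines under each treatment, 4 passed the adjusted p and MSX2 and ID1 were called, with a list median of 0.45. The shares over all genes were 10.4%, 2.47% and 0.601%. ID1, an inhibitor of differentiation that BMP signals induce, was at 5.13, 10.5 and 4.86 FPKM untreated, 17.95, 24.5 and 13.5 FPKM with Activin A, and 4.31, 15.3 and 4.34 FPKM with SB431542 (log2 difference 1.06 ± 0.17 (SE), limma adjusted p = 0.0179, 0.142 with the replicate block). It missed the threshold without the untreated (0.0996) or the SB431542 library of line 2. ID2 and ID3, of the same family, passed the adjusted p with 0.76 and 0.45. MSX1 was at 16.2, 19.1 and 27.4 FPKM in line 2 and 4.13 to 15.6 FPKM in the others, and with a log2 difference of 1.47 it did not pass (limma adjusted p = 0.0997).

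WNT ligands are secreted signals, and R-spondins strengthen them. Of 46 genes of the WNT list tested, 5 were called higher and WNT7A was called lower, and by the adjusted p alone 10 were higher and 4 were lower. Over all genes 0.601% and 0.203% were called, and 2.47% and 2.1% passed the adjusted p. The median log2 difference was 0.09. WNT10B, a WNT ligand, was at 1.19, 10.1 and 2.03 FPKM untreated, 2.15, 15.4 and 2.90 FPKM with Activin A, and 0.899, 18.03 and 2.09 FPKM with SB431542 (log2 difference 2.44 ± 0.22 (SE), limma adjusted p = 0.00244). RSPO1, an R-spondin that binds LGR receptors, was at 4.46, 14.3 and 3.60 FPKM untreated, 5.81, 16.4 and 5.59 FPKM with Activin A, and 1.38, 13.04 and 1.62 FPKM with SB431542 (log2 difference 1.83 ± 0.19 (SE), limma adjusted p = 0.00352). Both kept their call in all 9 fits with a library left out, and RSPO1 lost it with all 3 untreated libraries left out (adjusted p = 0.0653).

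WNT9A was at 1.51, 5.99 and 2.49 FPKM untreated, 2.20, 5.95 and 3.26 FPKM with Activin A, and 1.56, 10.9 and 3.60 FPKM with SB431542 (log2 difference 1.31 ± 0.24 (SE), limma adjusted p = 0.0261), and held its call in 5 of 9 such fits (adjusted p up to 0.18) and not with the replicate block (0.113). WNT1 and RSPO3, named here because they complete the called set, had log2 differences of 1.17 ± 0.24 (SE) and 1.06 ± 0.21 (SE) and were each called in 2 of 9 such fits (limma adjusted p = 0.0364 and 0.0347, and 0.248 and 0.174 with the replicate block). WNT1 and WNT10B overlap in the RefSeq annotation, so their reads may have been shared. AXIN2, a target and inhibitor of WNT signalling, was at 41.5, 70.2 and 57.0 FPKM untreated, 51.4, 82.6 and 56.1 FPKM with Activin A, and 43.5, 76.2 and 58.96 FPKM with SB431542, and passed the adjusted p with a log2 difference of 0.57. LGR4, a receptor of R-spondins, passed it in the other direction (-0.94), as did the receptor FZD7 (-0.41).

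Of 25 FGF ligands, receptors and feedback genes tested, FGF4 and DUSP4 passed the adjusted p on the higher side (2.47% of all genes), with a list median of 0.06. There were 0 called, where the background of 0.601% and 0.203% gives fewer than 1 in a list of this size, so the count is no result about the list. Of 14 neural ectoderm genes tested, SOX1 was called, 3 were below both other lines under each treatment and 3 were above (0.203%, 14.7% and 10.4% of all genes), with a list median of -0.14. PAX6 stood at 4.12, 4.54 and 6.52 FPKM in line 2 and 0.858 to 5.28 FPKM in the others, with line 3 near line 2. By the adjusted p alone 1 member was higher and 1 was lower, beside 2.47% and 2.1% of all genes. HES3, SOX21, FOXB1 and PRDM12, called lower, are known from neural cells and are not members of that list. LMX1A and LMX1B, called higher, are also known from neural tissue and are not members either. These genes were grouped after their values were seen and are no result about neural genes.

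Single members were called in several other lists, beside 0.601% of all genes called higher. PHLDA2, an imprinted gene that restrains placental growth, was at 0.827, 7.55 and 1.18 FPKM untreated, 0.800, 7.65 and 1.41 FPKM with Activin A, and 1.28, 8.95 and 1.68 FPKM with SB431542. With a log2 difference of 2.05 ± 0.12 (SE) (limma adjusted p = 0.000366) it was the only called member among 18 imprinted genes tested, whose median was -0.14. PRDM1, a repressor needed for germ cell fate, was at 0.511, 2.13 and 0.492 FPKM untreated, 0.544, 2.33 and 0.298 FPKM with Activin A, and 0.403, 2.95 and 0.421 FPKM with SB431542 (log2 difference 1.26 ± 0.09 (SE), limma adjusted p = 0.00154), and was the only one called of 6 germline genes (median 0.04). Both were called in all 9 fits with a library left out.

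Of 22 immediate-early genes tested, EGR4, IER3 and ATF3 were called higher (0.601% of all genes), with a list median of 0.16. ATF3, a stress-induced factor that is also in the heat shock and integrated stress list, was at 15.7, 31.2 and 12.7 FPKM untreated, 16.7, 29.4 and 13.7 FPKM with Activin A, and 20.4, 43.8 and 17.1 FPKM with SB431542 (log2 difference 1.06 ± 0.10 (SE), limma adjusted p = 0.00297). IER3, an early response gene, had a log2 difference of 1.07 ± 0.11 (SE) (limma adjusted p = 0.00352). ATF3 and IER3 lost their call against line 1 alone and with all 3 untreated or all 3 SB431542 libraries left out (adjusted p up to 0.0617 and 0.0785). EGR4, an early growth response factor, had one of 1.18 ± 0.26 (SE) (limma adjusted p = 0.0492, 0.162 with the replicate block) and was called in 2 of 9 fits with a library left out (adjusted p up to 0.257). Of the 16 stress genes tested 9 were above both other lines under each treatment (10.4% of all genes), with a median of 0.24, and ATF3 was the called one.

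There were 0 called genes among 16 mesenchymal transition genes, 16 HOX genes, 8 mesendoderm genes, 26 glycolysis and hypoxia genes and 21 cell cycle genes. With 0.601% and 0.203% of all genes called, lists of this size would hold fewer than 1 called gene at the background rate, so these counts are no result about the lists. By the adjusted p alone 2 mesenchymal genes were higher, SNAI1 and ITGA5 (0.72 and 0.49), and 4 were lower, VIM, ZEB2, FOXC2 and MMP2 (-0.22, -0.53, -0.88 and -0.38). Over all genes these shares were 2.47% and 2.1%. Under each treatment 3 of the 16 mesenchymal genes were above both other lines and 7 were below, beside 10.4% and 14.7% of all genes. The medians of these lists lay between -0.13 and 0.06. Over all 22 lists, 26 of the 115 called genes were members of at least 1 list. The lists held 494 distinct symbols, not all of them tested, beside 14313 genes tested. They were chosen with earlier results of these data known, so this count is no result about the called genes.

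**Figure D3:**
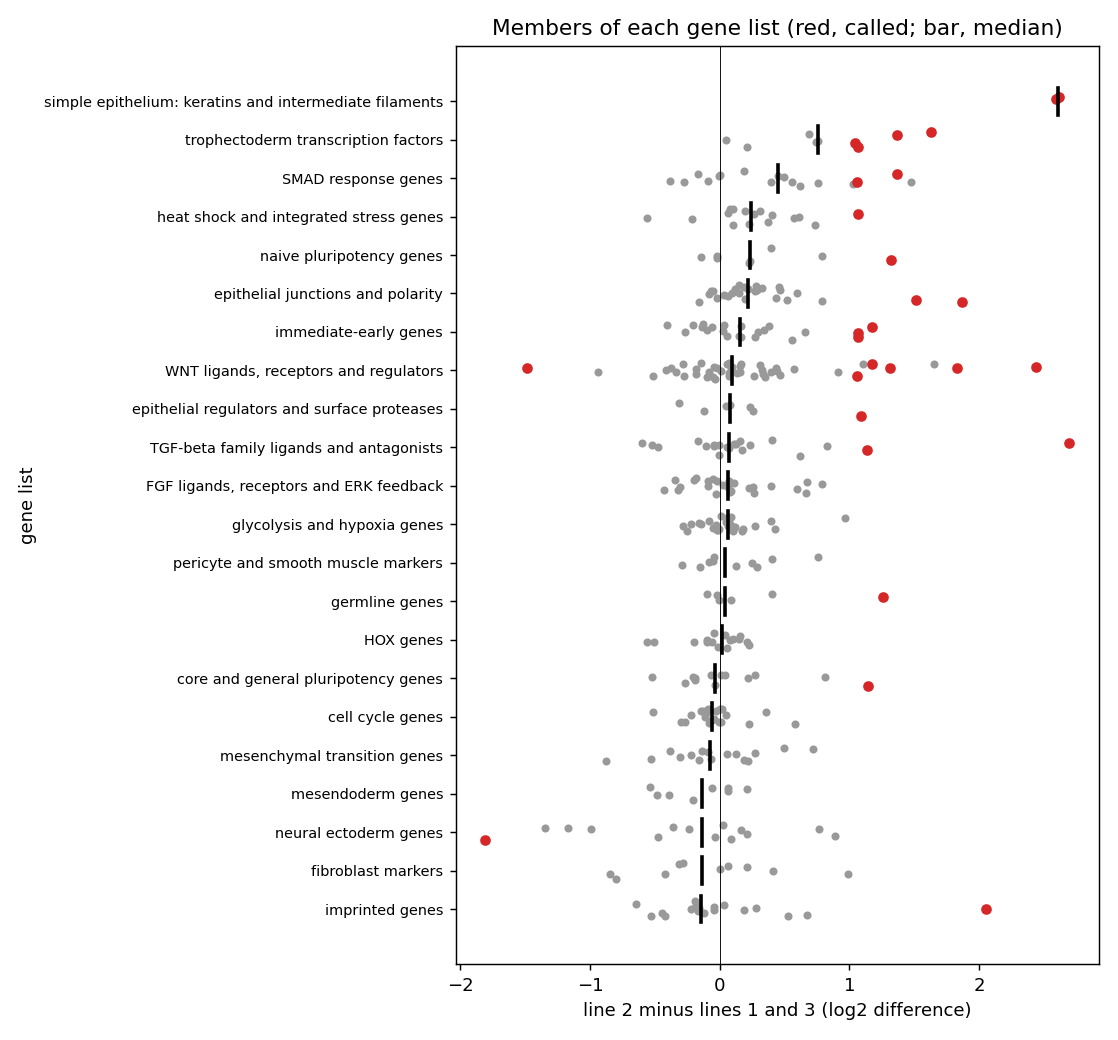
Log2 difference of line 2 minus lines 1 and 3 for each tested member of the 22 gene lists, 1 point a gene, ordered by the median, which the bar marks. Called genes are red. They number 4 of the 9 tested members of the trophectoderm list, which holds 15, and 6 of the 46 tested of the WNT list, which holds 55. Over all genes tested 0.601% were called higher and 0.203% lower.

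Cell types that the cultures could also hold were followed by their markers. Of 10 fibroblast markers and 10 pericyte and smooth muscle markers tested, 0 were called, which at a background of 0.601% and 0.203% is no result about these cell types. Of the fibroblast markers, 3 were above and 4 were below both other lines under each treatment, beside 10.4% and 14.7% of all genes. Their median log2 difference was -0.14, and COL6A1, a collagen, passed the adjusted p on the lower side (log2 difference -0.84, limma adjusted p = 0.0404). The summed level of 8 defining fibroblast genes was 17.7 to 46.1 FPKM in line 2 and 10.02 to 70.04 FPKM in lines 1 and 3, and POSTN, LUM, PDGFRA and COL1A1 were each under 1 FPKM in all 9 libraries. DCN, a matrix proteoglycan of fibroblasts, was at 6.94, 15.2 and 10.4 FPKM untreated, 14.4, 25.2 and 11.5 FPKM with Activin A, and 2.94, 12.6 and 6.76 FPKM with SB431542, the highest in line 2 under each treatment, and did not pass the test (limma adjusted p = 0.0523). COL1A2, a chain of type I collagen, was at 12.7, 9.02 and 10.2 FPKM untreated, 21.3, 11.2 and 12.7 FPKM with Activin A, and 4.77, 3.24 and 4.66 FPKM with SB431542, the lowest in line 2 under each treatment (limma adjusted p = 0.175), as was THY1, a surface glycoprotein (limma adjusted p = 0.18). COL3A1, type III collagen, was at 0.771, 3.32 and 23.2 FPKM untreated, 6.57, 7.47 and 42.9 FPKM with Activin A, and 0.0156, 0.215 and 2.73 FPKM with SB431542, the highest in line 3 under each treatment. The summed level of 7 pericyte and smooth muscle markers was 420 to 488 FPKM in line 2 and 309 to 494 FPKM in lines 1 and 3, nearly all of it TAGLN, and CSPG4 and MYH11 were under 1 FPKM throughout. Of the 10 tested, 2 were above both other lines under each treatment and 1 was below. Beside 10.4% and 14.7% of all genes, these counts are no result about the markers. RGS5, a regulator of G-protein signalling found in pericytes, was at 0.192, 0.966 and 0.201 FPKM untreated, 0.885, 2.06 and 0.154 FPKM with Activin A, and 0.115, 0.536 and 0.0513 FPKM with SB431542, and passed the adjusted p (log2 difference 0.76, limma adjusted p = 0.0396). PDGFRB, a PDGF receptor of pericytes, was at 8.24, 11.4 and 8.19 FPKM untreated, 6.99, 8.38 and 8.12 FPKM with Activin A, and 10.98, 15.3 and 8.17 FPKM with SB431542, also the highest in line 2 under each treatment, and did not pass (limma adjusted p = 0.114). MCAM, an adhesion molecule, was the lowest in line 2 under each treatment (log2 difference -0.29, limma adjusted p = 0.0495). The part of fibroblasts or pericyte-like cells in the differences was not tested. The defining pluripotency marker SOX2 was present at 56.9 to 71.5 FPKM in all 9 libraries.

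Lines 1 and 3 also differed from each other. By the same rule on their 6 libraries, 70 genes were higher in line 3 than in line 1 (0.489%) and 28 were lower (0.196%). Without the filter on low values these counts fell to 0 and 1, so they and the genes drawn from them depend on that filter. Of the 115 genes called for line 2, 3 were also called between lines 3 and 1, namely KRT8, LMX1A and GPX1. KRT8 was lower in line 3 than in line 1, with a log2 difference of -1.24 (limma adjusted p = 0.013). Tested against line 1 alone and line 3 alone, 71 of the 115 genes were called both times. Without the untreated library of line 1, or of line 3, the counts between these lines fell to 3 higher and 4 lower. The numbers of called genes do not measure how unlike the lines are, since 3 libraries stand against 6 in one comparison and against 3 in the other.

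**Figure D4:**
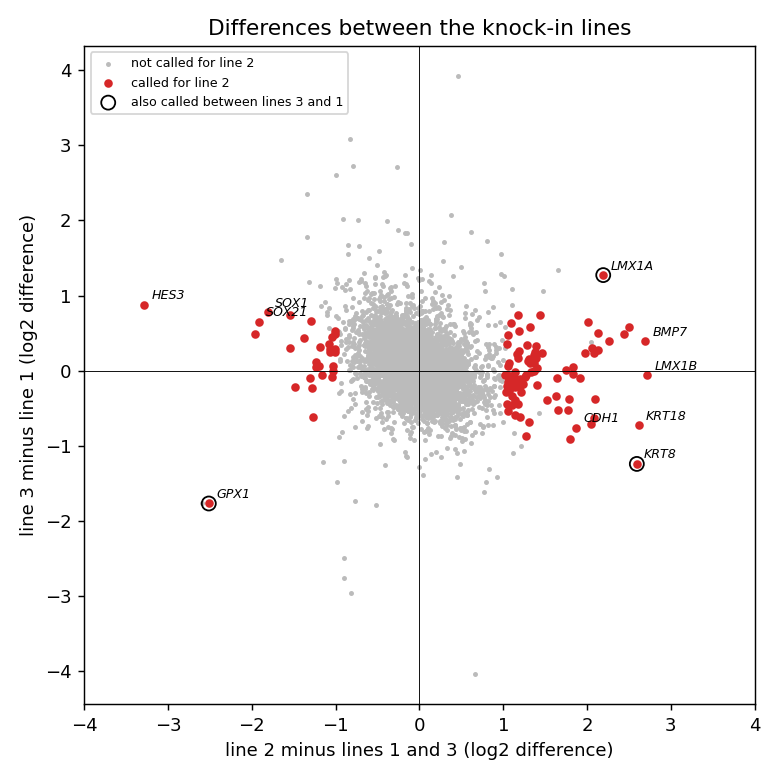
Log2 difference of line 2 minus lines 1 and 3 (x axis) and of line 3 minus line 1 (y axis) for the 14313 genes tested, with the 115 genes called for line 2 in red. Circles mark the 3 genes that were also called between lines 3 and 1, and the other red points lie within 1 of the horizontal line.

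The difference of line 2 had the same sign under each treatment by the rule, and its size could be compared. Over the 86 higher genes the median difference was 1.21 untreated, 1.17 with Activin A and 1.67 with SB431542. Over the 29 lower genes it was -1.18, -1.08 and -1.49. The difference with SB431542 was the largest of the 3 in 70 of the 86 higher genes (81.4%), beside 47.8% of the 1491 genes with line 2 above both lines under each treatment. In the lower genes it was the most negative of the 3 in 19 of 29 (65.5%), beside 43.4% of the 2110 genes with line 2 below both. The called genes were chosen on the size of these same differences and the comparison genes on position alone, so the shares are not matched. For BMP7 the difference was 2.56 untreated, 2.22 with Activin A and 3.30 with SB431542. For RSPO1 it was 1.61 untreated, 1.38 with Activin A and 2.49 with SB431542. PHLDA2 differed by nearly the same amount under each, with 2.10 untreated, 2.05 with Activin A and 2.01 with SB431542. A limma test of the interaction of line 2 with treatment passed the adjusted p in 0 genes (smallest adjusted p 0.0937), with 275 genes at an unadjusted p under 0.05, of which 18 were among the 115. With a pseudocount of 0.1 it passed in 2, ICMT and RF02153, neither of them called for line 2.

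WT PC-iPS cells, which took no part in the choice of genes, lay nearer to lines 1 and 3 than to line 2 for 85 of the 86 higher genes and 23 of the 29 lower genes, when compared with the untreated libraries. The genes were chosen for line 2 standing apart, in part on these same untreated libraries. WT lay nearer to lines 1 and 3 in 8299 of all 14313 genes tested (58%), in 70.8% of the 1491 genes with line 2 above both lines under each treatment and in 62% of the 2110 with line 2 below both. In 55 of the 86 higher genes all WT libraries were below all 3 untreated lines, so that line 2 was the farthest from WT. KRT8, KRT18 and CDH1 were of this kind, with WT at 7.51, 3.34 and 8.50 FPKM for KRT8, 1.74, 0.607 and 1.83 FPKM for KRT18 and 1.97, 1.64 and 1.05 FPKM for CDH1. So was MSX2, at 0.0200, 0.0865 and 0.0307 FPKM. WT lay below all 3 lines in 19.1% of all 14313 genes and in 30.8% of the 1491 genes with line 2 above both lines under each treatment.

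In the other 31 higher genes WT overlapped the lines. LMX1A was at 7.48, 1.45 and 3.998 FPKM in WT, from near line 1 to above line 3 and below line 2 throughout, and ESRRB was at 1.94, 0.948 and 1.24 FPKM, at or below the level of lines 1 and 3. Of the lower genes, 5 had WT above all 3 lines, 1 had WT below all 3 and 23 had WT overlapping them. WT lay above all 3 lines in 16% of all genes tested and in 20.4% of the 2110 with line 2 below both lines. FOXB1 was at 8.63, 12.96 and 5.33 FPKM in WT and WNT7A at 11.5, 8.96 and 3.50 FPKM, around or above the untreated levels of lines 1 and 3. HES3 was at 18.2, 12.9 and 29.1 FPKM, above line 2 and below lines 1 and 3, and SOX1, at 3.96, 4.52 and 6.98 FPKM, was likewise nearer to line 2. The WT libraries share a table with the untreated lines only, and these are values with no test.

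**Figure D5:**
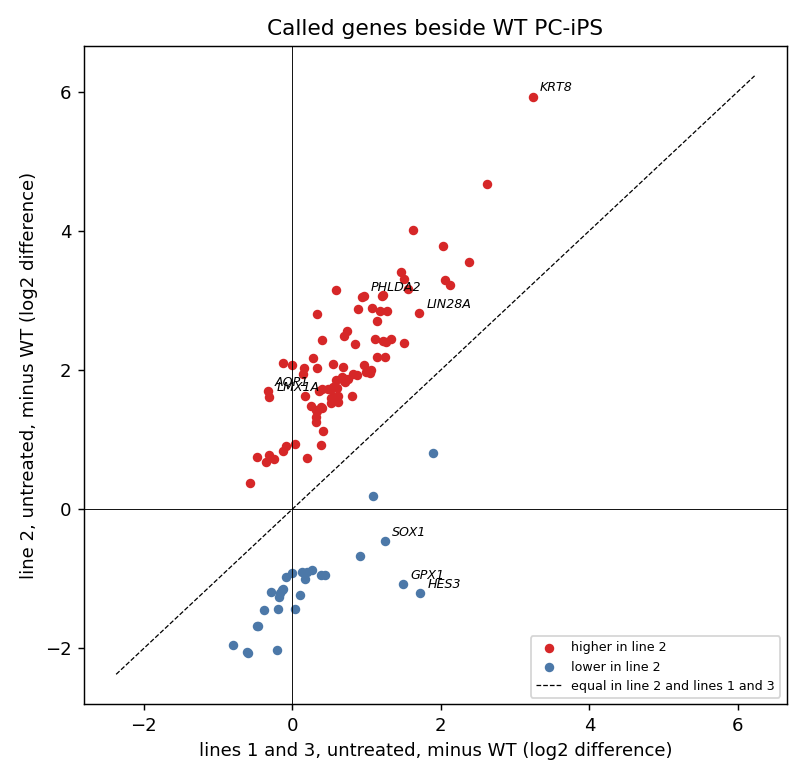
Untreated levels relative to the mean of the 3 WT libraries for the 115 called genes, on the log2(FPKM + 1) scale, with lines 1 and 3 on the x axis, line 2 on the y axis and 1 point a gene. Genes higher in line 2 lie above the dashed line of equality and genes lower in line 2 lie below it, as the call requires.

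Of the 115 called genes, 98 could be placed on Sscrofa11.1 by symbol. The 71 placed higher genes numbered at most 8 on any chromosome. Of the 27 placed lower genes, 7 were on chromosome 6, which holds 10.8% of the placed genes tested, and at most 2 on any other. HES3 and GPR153, which overlap, are among those 7. Chromosome 10 held 0 of either kind among its 258 genes. With 0.601% and 0.203% of all genes called, this count is no result. The median log2 difference of each of 19 chromosomes lay between -0.0486 (chromosome 18) and -0.000964 (chromosome 16), beside -0.0186 over all genes tested. The 13 protein-coding genes of the mitochondrion had a median of 0.21. Some called genes lie close together. KRT8 (chromosome 5, 18172423 to 18180277) and KRT18 (chromosome 5, 18217686 to 18221432) are neighbours, as are WNT10B (chromosome 5, 14997377 to 15013928), WNT1 (chromosome 5, 15010607 to 15015007) and DDN (chromosome 5, 15025508 to 15032335), and TFAP2C (chromosome 17, 57164400 to 57174923) lies near BMP7 (chromosome 17, 57567770 to 57676516). CDH1 lies on chromosome 6 (18075487 to 18155986). Of the placed genes, 10 overlap the annotated span of another tested gene, and in 2 such pairs, HES3 with GPR153 and WNT10B with WNT1, both genes were called.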

How the data were processed

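RNA from 12 oligo(dT) libraries was sequenced. Per the study's methods, the authors used Trim Galore for trimming and HISAT2 2.0.4 for alignment to Ssc11.1, and computed the deposited FPKM with StringTie 1.3.3 and Ensembl annotation (versions from the submitters' processing notes), in 2 tables that were joined here by gene identifier. The authors tested counts with DESeq2. Counts were not used here, so depth is unknown, and relative depth came from the commonest ratio of values under 0.3 FPKM.

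Genes with at least 0.1 FPKM in 3 of the 9 knock-in libraries were tested with limma 3.58.1 (R 4.3.3) on log2(FPKM + 1) with a variance trend, two-sided, with treatment, which also absorbs which file a library is in, as a block. The call needed an adjusted p of 0.05 and a log2 difference of 1. The fit was tested on simulated data with independent noise in each library. No shared line effect was simulated, so that test cannot show how often a single line gives false calls. Named genes were the 12 of largest difference in each direction, the markers, NANOG and up to 4 called members of each of 22 lists, while others were named after their values were seen. The members and lists were chosen with earlier results of these data known. Line numbers come from the labels alone. They were taken to pair libraries, from the deviation correlations in the results, so line was also fitted as a correlated block. Other alternatives were pseudocounts, filters, scalings, single lines, and treatments or libraries left out. Coordinates are RefSeq's for Sscrofa11.1, matched by symbol. Plots were made in Python 3.11.15 with matplotlib 3.10.9.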

Additional observations from a re-analysis of the deposited data

How the results depend on the processing

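Of the values of 43 named genes under each alternative, 889 kept their direction and their side of the threshold, 186 kept the direction and missed the threshold, and 0 reversed. For line 2, 86 genes were called higher and 29 lower. A pseudocount of 0.1 gave 146 and 92, one of 0.01 gave 101 lower, TPM gave 54 lower, and no fold threshold gave 354 and 300. With the replicate block the counts were 46 and 15. Against line 3 alone 125 were lower. Without the untreated libraries 19 and 7 were called, and without the SB431542 libraries 27 and 6. Leaving out each library gave 42 to 84 higher and 12 to 40 lower. Between lines 3 and 1 (70 higher, 28 lower), a pseudocount of 0.1 gave 169 and 84, one of 0.01 gave 152 and 78, TPM gave 116 and 51, and no filter gave 0 and 1. Leaving out each library gave 3 to 91 and 4 to 27. The interaction passed in 2 genes at a pseudocount of 0.1. The median of chromosome 16 was 0.01896 with median-ratio scaling and 0.01412 against line 3 alone. That of chromosome 18 was -0.05809 at a pseudocount of 0.1, -0.02675 with median-ratio scaling, -0.02707 against line 1 alone and -0.03231 against line 3 alone. The cause of these shifts was not tested. Counts of called list members were unchanged within 1.5 times in 275 recomputations and moved in 100. Without counts, no counting error could be given for low genes.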

Other observations

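Further called genes outside the lists add to the description, and they were chosen after their values were seen. KRT14, a keratin of stratified epithelia, was at 6.82, 7.16 and 7.62 FPKM in line 2 (untreated, Activin A and SB431542) and 0.662 to 3.67 FPKM in lines 1 and 3, with line 1 under Activin A the highest of the others, and it lost its call in 5 of 9 fits with a library left out (limma adjusted p up to 0.203 over all alternatives) and with the replicate block (adjusted p = 0.0803). PERP, a desmosome protein, was at 7.74, 8.35 and 11.097 FPKM against 2.44 to 4.69 FPKM, and CLDN8, a claudin, was at 4.54, 7.82 and 2.43 FPKM against 0.251 to 3.06 FPKM. GADD45A, a stress sensor of the cell cycle, was at 27.1, 31.2 and 41.6 FPKM against 6.40 to 11.96 FPKM. F3, tissue factor of blood clotting, was at 63.7, 89.2 and 89.3 FPKM against 13.9 to 38.7 FPKM. The log2 differences were 1.79 ± 0.32 (SE) for KRT14, 1.21 ± 0.12 (SE) for PERP, 1.38 ± 0.14 (SE) for CLDN8, 1.74 ± 0.10 (SE) for GADD45A and 1.98 ± 0.19 (SE) for F3 (limma adjusted p = 0.0247, 0.00319, 0.00328, 0.000366 and 0.0029). CLDN8 lost its call without the treatment block and with all 3 SB431542 libraries left out (adjusted p up to 0.135). PERP and F3 lost theirs with all 3 untreated libraries left out, and PERP also with the SB431542 libraries left out (adjusted p up to 0.0633 and 0.0677).

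GDF7, a BMP-family ligand of the roof plate, was at 2.87, 2.19 and 5.61 FPKM in line 2 and 0.412 to 0.841 FPKM in lines 1 and 3 (log2 difference 1.40 ± 0.20 (SE), limma adjusted p = 0.0104), and it was not called with the replicate block (adjusted p = 0.0991). Among the lower genes, RGMA, a co-receptor of BMPs, was at 59.03, 51.6 and 49.2 FPKM against 101.4 to 116 FPKM, and NBL1, a secreted BMP antagonist, was at 4.54, 5.19 and 2.86 FPKM against 5.78 to 14.03 FPKM. The log2 differences of RGMA and NBL1 were -1.03 and -1.01 (limma adjusted p = 0.000366 and 0.0232). The call of NBL1 held in 3 of 9 fits with a library left out and not with the replicate block (adjusted p = 0.0651). RGMA was called in 8 of 9 such fits and lost its call against line 1 alone and with all 3 SB431542 libraries left out. There its log2 difference fell short of 1 in size (-0.967 at the least), while its limma adjusted p stayed at 0.0284 or less. CTNNA2, the neural alpha-catenin, was at 8.10, 9.55 and 7.70 FPKM against 15.9 to 22.5 FPKM (log2 difference -1.07 ± 0.10 (SE), limma adjusted p = 0.00233). It lost its call against line 1 alone, where the log2 difference was -0.946.

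ICMT, which codes for a methyltransferase and lies beside HES3 on chromosome 6 (67116943 to 67125908 and 67134259 to 67138639), was at 58.9, 36.9 and 58.1 FPKM untreated, 10.8, 36.6 and 11.4 FPKM with Activin A, and 57.6, 28.8 and 54.7 FPKM with SB431542 in lines 1, 2 and 3. The part of read assignment between these neighbours in either level was not tested.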
